A study of Mus musculus with 30 samples.

Results

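The comparison described here sets digits collected 12 h after amputation of the digit tip against digits collected at 0 h. Its members are the libraries whose labels give these times, 3 at 12 h and 3 at 0 h, which makes 6 of the 30 libraries of a series with 9 time points. Each library is polyA RNA from the third hindlimb digit of 1 mouse, and both groups carry the same operation, removal of at most 33% of the distal phalanx (P3), the bone of the digit tip. All animals were adult male C57Bl/6 mice, for which no transgene and no treatment besides anaesthesia is named. The wounds were not sutured, the cut was checked by microCT right after surgery, and the collected digits went directly into RNAlater. The 0 h digits had therefore been amputated too, so the contrast measures the time elapsed since the cut and holds no uninjured digit. The labels give neither the hour of day of collection nor how soon after the cut a 0 h digit was taken.

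A mouse digit tip regrows when the cut stays within the distal phalanx. In the first day after such a cut, a clot and a scab cover the stump, leukocytes enter it, and epidermis and connective tissue at its edge switch on wound genes before any blastema is seen. Genes of a first wave, the immediate early genes such as Fos, Jun and Egr1, are known to be transcribed within minutes of handling or injury without new protein synthesis and to be shut off again soon afterwards. Cytokines, chemokines and matrix metalloproteinases belong to the later waves.

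Total expected read counts ran from 6094615 to 12773273 at 0 h and from 4916791 to 6776238 at 12 h, within the range of 3167625 to 16277816 over the series. Every 12 h title carries one date in July, and so does 1 of the 3 titles at 0 h (replicate 3). The titles of 0 h replicates 1 and 2 carry a date in November and their libraries are the deepest of the 6. The labels do not say what the date is the date of, and it is partly confounded with time after amputation. Over the series the title dates fall either in July and August or from November to January. These spans are called the earlier and the later campaign here, a pooling that the labels do not give. The animal code in the title of 0 h replicate 3 also stands in that of 12 h replicate 2, although the methods give separate mice for each time. Across genes, Pearson's r of log2(CPM + 1) was 0.955 to 0.963 between 12 h libraries and 0.964 to 0.983 between 0 h libraries. Between a 12 h library and the 0 h library of the same date r was 0.954 to 0.966, and with the 0 h libraries of the later date it was 0.943 to 0.959. As the tissue label requires, epidermal keratins were abundant in all 6 libraries: Krt5 of basal keratinocytes had 3443 to 3682 CPM at 0 h and 3157 to 3685 CPM at 12 h, and Krt10 of the layers above had 22474 to 25498 CPM and 16781 to 21646 CPM. Hard keratins of nail and hair (Krt31, Krt86), collagen (Col1a1), bone (Ibsp), osteoclast (Ctsk) and endothelial (Pecam1) transcripts were also present in every library. Skeletal muscle transcripts set 1 library apart: Acta1 had 0.160, 26.0 and 0 CPM at 0 h and 0, 0.544 and 1.55 CPM at 12 h, so that 0 h replicate 2 held nearly all of it. The same library was the highest of the 6 for the globin gene Hbb-bs, which had 21.0, 220.2 and 62.7 CPM at 0 h and 17.8, 22.8 and 23.0 CPM at 12 h.

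Expression was compared as CPM (expected counts scaled to a common effective library size after TMM normalization), and fold changes are log2 values of 12 h over 0 h from edgeR's quasi-likelihood fit of all 30 libraries. Of 13793 genes tested, 23 (0.167%) had an adjusted p under 0.05, of which 16 (0.116%) rose and 7 (0.0508%) fell. By fitted fold change, the 6 genes highest among those that rose were Il6, Mmp3, Lif, Timp1, Il1rl1 and Mmp13, and the 4 lowest among those that fell were Fosb, Fos, Dusp1 and Jun. All 23 genes had their 3 libraries at 12 h on one side of the 3 at 0 h. Such a separation was not rare by itself: 1355 of the tested genes (9.82%) had every 12 h library above, and 1360 (9.86%) every 12 h library below, all 0 h libraries. The median log2 fold change of all genes tested was 0.01. In whole digits, a lower level can come from fewer cells that express a gene or from less RNA per cell, and these cannot be told apart here.

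**Figure D1:**
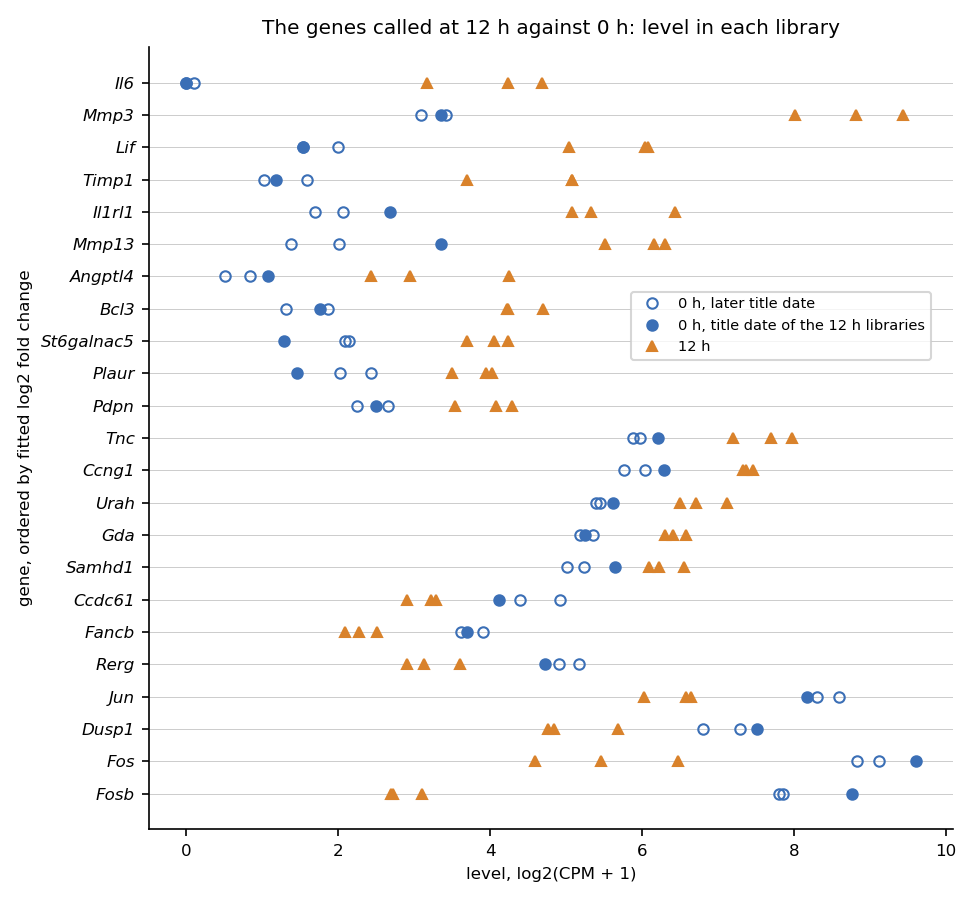
Levels of the 23 genes with an adjusted p under 0.05 in each of the 6 libraries, as log2(CPM + 1) on the horizontal axis, with 1 gene per line ordered by fitted log2 fold change. Circles are 0 h libraries (filled for the one with the date of the 12 h libraries) and triangles are 12 h libraries; triangles lie to the right of all circles for 16 genes and to the left for 7.

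Of the immediate early genes, Fosb, Fos, Jun and Dusp1 fell from the 0 h digits to those at 12 h. Fosb, which encodes a subunit of the transcription factor AP-1 (ENSMUSG00000003545, chr7:19302696-19310051, minus strand, GRCm38), had 231, 223 and 435 CPM at 0 h against 7.58, 5.62 and 5.50 CPM at 12 h. The groups were far apart, with a log2 fold change of −5.56 (SE 0.61, adjusted p = 8.06e-06). Fos, the founding member of the same family (chr12:85473890-85477273, plus strand), had 556, 455 and 779.9 CPM at 0 h and 23.2, 87.7 and 43.1 CPM at 12 h. Relative to their mean the 12 h libraries varied more than those at 0 h, but they stayed far below them, with a log2 fold change of −3.54 (SE 0.50, adjusted p = 0.000387). Jun, the usual partner of FOS proteins in AP-1 (chr4:95049034-95052222, minus strand), had 316, 385 and 288 CPM at 0 h and 64.0, 99.0 and 94.97 CPM at 12 h. Its groups did not overlap, with a log2 fold change of −1.94 (SE 0.29, adjusted p = 0.000682). Of its 3189 exonic bases, 232 are shared with the antisense gene Junos, and the strand setting of the counting is not given in the sources used here, so reads of such a pair cannot be told apart. Dusp1, a phosphatase that switches off MAP kinases (chr17:26505590-26562128, minus strand), had 156, 111 and 182 CPM at 0 h and 27.7, 50.6 and 26.3 CPM at 12 h, a log2 fold change of −2.10 (SE 0.34, adjusted p = 0.00227). The gene shares 11 exonic bases with Ergic1 on the other strand. Its call was lost without 12 h replicate 3, with an adjusted p of 0.0573, while Fosb, Fos and Jun passed without any single library of the 6.

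Of 25 immediate early and AP-1 genes listed, all were tested, 0 rose and 4 fell, against 0.0508% of all genes tested, and the median log2 fold change was −1.17. Every 12 h library was below every 0 h library for 16 of the 25, against 9.86% of all genes, and above for 2. Egr1, a zinc finger factor induced with Fos, narrowly missed the test, with 285, 283 and 315 CPM at 0 h and 36.8, 84.5 and 107 CPM at 12 h (log2 fold change −1.95, adjusted p = 0.0503). Klf4, a zinc finger factor of differentiating epidermis, went from 1403, 1332 and 794 CPM to 435, 389 and 396 CPM (log2 fold change −1.53, adjusted p = 0.23). Both passed DESeq2's test, with adjusted p of 0.00163 and 0.0292, where 0.519% of the genes tested passed. With the campaign of the title date as a covariate Egr1 passed (log2 fold change −2.24, adjusted p = 0.0142) and Klf4 did not (−0.76, adjusted p = 0.19), and the median of the list was −0.74 in place of −1.17. In the fit of the 6 libraries alone, which called 0.873% of the genes it tested, 10 genes of the list passed, all lower, among them Zfp36, Ier2, Btg2 and Jund. That fit has no term for the date. With campaign as a covariate none of these named genes passed (adjusted p of 0.441 to 0.842). Jund went from −1.48 to −0.67, Ier2 from −1.27 to −0.74 and Btg2 from −1.09 to −0.73, while Zfp36 went from −1.41 to −1.43. Atf3 had 14.3, 10.7 and 68.3 CPM at 0 h and 3.58, 2.18 and 6.70 CPM at 12 h (log2 fold change −2.89, adjusted p = 0.338), and its 0 h level was set by replicate 3. Not every early gene was low at 12 h: Myc, Ier3, Nr4a2, Nr4a3 and Fosl1 had positive fold changes between 0.36 and 0.81, none of which passed the test. The FOS-related gene Fosl2 was lower in every 12 h library by a small margin, with 256, 249.6 and 315 CPM at 0 h and 237, 229.7 and 176 CPM at 12 h (log2 fold change −0.35, adjusted p = 0.663).

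Against the single 0 h library that shares its date with the 12 h libraries, the mean log2(CPM + 1) of the 12 h libraries differed by −5.93 for Fosb, −4.10 for Fos, −2.41 for Dusp1 and −1.76 for Jun. These are differences between 3 libraries and 1, whose direction is fixed because the groups of these genes do not overlap. The library has the highest Fosb, Fos and Dusp1 levels of the 3 at 0 h and the lowest Jun level.

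At the other times of the first day these genes were low from 6 h on. No library of these other times carries the date of the 12 h titles. Fos had 93.4 to 197 CPM over the 3 libraries at 3 h and 32.0 to 103 CPM at 6 h, Fosb 73.0 to 284 CPM at 3 h and 9.02 to 22.5 CPM at 6 h, and Jun 106 to 152 CPM at 3 h and 86.9 to 97.1 CPM at 6 h. At 24 h the ranges were 46.9 to 61.2 CPM for Fos, 7.06 to 31.1 CPM for Fosb and 73.9 to 105 CPM for Jun. Fosb at 12 h thus had its 3 libraries below all 3 at 6 h, with a fitted difference of −1.203 (adjusted p = 0.729) on the log2 scale. The fold changes of 12 h over 24 h were −1.39 (adjusted p = 0.507) for Fosb, −0.10 (adjusted p = 0.982) for Fos and −0.08 (adjusted p = 0.977) for Jun. At 21 d, Fos had 144 to 521 CPM, a range that reaches into the one at 0 h. Fosb with 62.6 to 199 CPM and Jun with 156 to 277 CPM were still below all 0 h libraries at that time. Every title at 21 d carries a date of the later campaign, as those of 0 h replicates 1 and 2 do and those at 12 h do not.

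**Figure D2:**
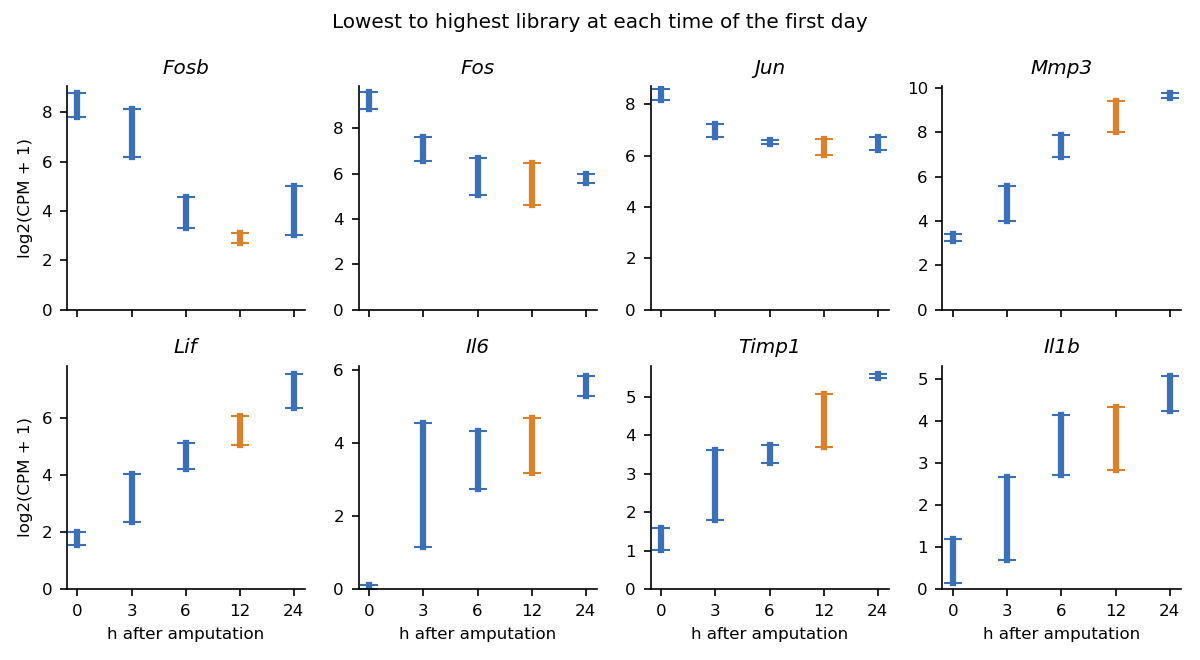
Lowest to highest library at 0, 3, 6, 12 and 24 h after amputation for 8 genes, as log2(CPM + 1), with 3 libraries at each time and 12 h in orange. Fosb, Fos and Jun start high and lie low from 6 h on, while Mmp3, Lif, Il6, Timp1 and Il1b lie lowest at 0 h and highest at 24 h; Il1b did not pass the test at 12 h (adjusted p = 0.0503).

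Lif and Il6, both cytokines of the IL-6 family, were among the 16 genes that rose. Lif, leukaemia inhibitory factor, which signals through LIFR and gp130 to STAT3 (chr11:4257557-4272514, plus strand), had 1.92, 2.98 and 1.92 CPM at 0 h and 31.8, 66.9 and 64.6 CPM at 12 h. The 12 h libraries were far above those at 0 h, with replicate 1 the lowest of the 3, and the log2 fold change was 4.56 (SE 0.57, adjusted p = 6.09e-05). Il6, interleukin 6 (chr5:30013114-30019981, plus strand), had 1 read in total over the 3 libraries at 0 h and 301 over the 3 at 12 h. In CPM these were 0.0800, 0 and 0 at 0 h and 7.99, 17.9 and 24.7 at 12 h, a ratio of 455 with a 95% exact counting interval of 81.1 to 18045 (adjusted p = 0.00227). Il6 lost its call without 0 h replicate 1 or without 0 h replicate 2, with an adjusted p of up to 0.052, whereas Lif kept its call in all 6 such fits. Against the 0 h library of the same date, the differences in log2(CPM + 1) were 4.17 for Lif and 4.03 for Il6.

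Of 20 inflammatory cytokines listed, 13 were tested, 2 rose (Lif and Il6) and 0 fell, against 0.116% and 0.0508% of all genes. Their median log2 fold change was 1.19, and 7 of the 13 had every 12 h library above all 0 h libraries, against 9.82% of all genes. Il11, a further IL-6 family cytokine, had the lowest fitted value of the list, with 15.9, 18.5 and 2.08 CPM at 0 h and 4.00, 7.07 and 12.7 CPM at 12 h (log2 fold change −0.65, adjusted p = 0.856), and its groups overlapped. Il1b, the inflammasome-processed interleukin 1 beta, just missed the test with 0.240, 0.107 and 1.28 CPM at 0 h and 6.20, 13.4 and 19.4 CPM at 12 h (log2 fold change 4.77, adjusted p = 0.0503), and passed DESeq2's test (adjusted p = 0.00103). Il24, a cytokine of wounded epithelium, had 0, 0.107 and 0 CPM at 0 h and 2.34, 4.89 and 3.09 CPM at 12 h. These come from 1 read in all at 0 h and 62 at 12 h, a ratio of 93.8 with a counting interval of 16.2 to 3764 (adjusted p = 0.397). Csf1, the growth factor of macrophages, had 23.2, 22.1 and 26.1 CPM at 0 h and 37.4, 56.2 and 47.7 CPM at 12 h, and Il33, an alarmin of epithelium, had 12.3, 19.2 and 17.6 CPM at 0 h and 40.7, 25.7 and 30.1 CPM at 12 h. Neither passed, with adjusted p of 0.317 and 0.607. Ptgs2, the inducible cyclooxygenase, had 9.12, 4.58 and 70.4 CPM at 0 h and 108, 187 and 164 CPM at 12 h (log2 fold change 2.48, adjusted p = 0.457). The 0 h library of the July date held the highest of its 0 h values by far, and against it the difference was 1.0725 on the log2(CPM + 1) scale. Tnf was not tested, with at most 0.363 CPM in any of the 6 libraries, and Il10 and Csf2 had no read in them. Il1rn, the receptor antagonist, overlapped between groups, with 41.3, 34.0 and 49.1 CPM at 0 h and 37.4, 31.7 and 33.7 CPM at 12 h.

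Il1rl1, the IL-33 receptor ST2, which is also released as a decoy, had 3.20, 2.24 and 5.44 CPM at 0 h and 32.8, 85.6 and 39.2 CPM at 12 h, a log2 fold change of 3.88 (SE 0.72, adjusted p = 0.01). That call was lost without 0 h replicate 1, 0 h replicate 2 or 12 h replicate 2, with an adjusted p of up to 0.159. Among 10 IL-6 family receptors and STAT3 feedback genes, all tested, 0 rose and 0 fell, with a median log2 fold change of 0.33. Osmr, the oncostatin M receptor, had the largest fold change of the 10, with 17.7, 19.0 and 19.2 CPM at 0 h and 51.5, 54.2 and 63.0 CPM at 12 h (log2 fold change 1.60, adjusted p = 0.151), and passed in the fit of the 6 libraries (adjusted p = 0.00157). The shared subunit Il6st (gp130) had 152, 189 and 187 CPM at 0 h and 215, 272 and 267 CPM at 12 h, Stat3 had 110.4, 113 and 126 CPM at 0 h and 153, 146 and 188 CPM at 12 h, and both were without overlap but not called, with adjusted p of 0.576 and 0.583. The feedback inhibitor Socs3 overlapped between groups, with 32.9, 26.5 and 52.3 CPM at 0 h and 34.2, 52.9 and 56.5 CPM at 12 h.

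Chemokines showed positive fitted values throughout without a single call. Of 22 listed, 17 were tested, 0 rose and 0 fell, all 17 had a fold change above 0, and the median log2 fold change was 2.09, or 2.06 with Cxcl3 and Ccl3, which had no read at 0 h, set to the bound that 3 reads over the group allow. Every 12 h library was above all 0 h libraries for 8 of the 17, against 9.82% of all genes. Cxcl1, a neutrophil attractant, had 2, 1.49 and 9.76 CPM at 0 h and 38.6, 88.8 and 60.3 CPM at 12 h (log2 fold change 3.92, adjusted p = 0.0959). Cxcl2, with the same receptor, had 0, 0.426 and 0.960 CPM at 0 h and 3.17, 7.43 and 11.7 CPM at 12 h (log2 fold change 4.22, adjusted p = 0.325). Cxcl5 had 0.560, 0.640 and 1.28 CPM at 0 h and 4.00, 8.88 and 4.29 CPM at 12 h (log2 fold change 2.83, adjusted p = 0.52). The monocyte attractant Ccl2 was low in 12 h replicate 1, with 0.320, 0.213 and 0.160 CPM at 0 h and 0.276, 5.26 and 10.1 CPM at 12 h (log2 fold change 4.34, adjusted p = 0.202). Cxcl1 passed DESeq2's test (adjusted p = 0.00821) and the fit with campaign as a covariate (adjusted p = 0.0172). Cxcl12 and Cxcl14, made by resting fibroblasts and epidermis, were present in all 6 libraries, with 69.4, 73.5 and 91.5 CPM at 0 h and 109, 135 and 128 CPM at 12 h for Cxcl12 and 63.8, 43.1 and 56.5 CPM at 0 h and 75.1, 145 and 116 CPM at 12 h for Cxcl14.

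Neutrophil genes had higher summed levels at 12 h beside the chemokine and cytokine values, and their part in those values was not tested. Of 20 neutrophil genes listed, 16 were tested and 0 were called. Their median log2 fold change was 1.62 (1.67 without Ltf, which had no read in the 6 libraries), 7 of the 16 were without overlap and higher (9.82% of all genes were), and their summed level was 39.6 to 52.1 TPM (the share of a library's transcripts) at 0 h and 119.7 to 208.9 TPM at 12 h. S100a8, a calcium-binding protein that fills neutrophils, had 0, 0.213 and 0 CPM at 0 h and 3.17, 6.89 and 6.70 CPM at 12 h. These come from 2 reads in all at 0 h and 100 at 12 h, a ratio of 75.6 with a counting interval of 20.4 to 633 (adjusted p = 0.0547). Its partner S100a9 had 0.720, 0.640 and 0.800 CPM at 0 h and 10.6, 3.81 and 12.7 CPM at 12 h (log2 fold change 3.64, adjusted p = 0.23). Clec4d, a receptor of activated neutrophils and monocytes, had 0.800, 0.746 and 0.320 CPM at 0 h and 4.82, 3.63 and 9.27 CPM at 12 h (log2 fold change 3.14, adjusted p = 0.262). Clec4e, a related receptor, had 1.79, 0.363 and 6.35 CPM at 12 h. It had no read at 0 h and 52 at 12 h, at least 26.2-fold higher with 3 reads over the group as the floor. Other defining genes were low or overlapped: Fpr1 and Fpr2 had no read in the 6 libraries either, Retnlg had at most 0.413 CPM, and Cxcr2 had 22.6, 31.0 and 14.7 CPM at 0 h and 12.3, 9.06 and 22.5 CPM at 12 h. Ly6g was not analysed here. Of 19 monocyte and macrophage genes, 18 were tested, 0 were called, the median log2 fold change was 0.63, and the summed level was 572 to 637 TPM at 0 h and 628 to 650.4 TPM at 12 h.

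Matrix-degrading enzymes and their inhibitors held 4 of the 16 genes that rose. Mmp3, stromelysin 1, which cleaves many matrix proteins and activates other metalloproteinases (chr9:7445822-7455975, plus strand), had 9.68, 7.57 and 9.28 CPM at 0 h and 258, 450.4 and 692 CPM at 12 h. Values were tight at 0 h and spread widely at 12 h without coming near them, and the log2 fold change was 5.72 (SE 0.82, adjusted p = 0.000387). Mmp13, collagenase 3, which lies with it in the metalloproteinase cluster of chromosome 9 (chr9:7272514-7283331, plus strand), had 3.04, 1.60 and 9.28 CPM at 0 h and 44.5, 70.5 and 78.1 CPM at 12 h, a log2 fold change of 3.87 (SE 0.75, adjusted p = 0.0176). Timp1, the secreted inhibitor of metalloproteinases (chrX:20870166-20874735, plus strand), had 1.04, 2.03 and 1.28 CPM at 0 h and 12.0, 32.8 and 32.8 CPM at 12 h, a log2 fold change of 4.15 (SE 0.54, adjusted p = 0.000115). Plaur, the receptor that holds urokinase at the cell surface (chr7:24462484-24475968, plus strand), had 4.4001, 3.09 and 1.76 CPM at 0 h and 10.3, 14.5 and 15.3 CPM at 12 h, a log2 fold change of 2.07 (SE 0.44, adjusted p = 0.0379). Mmp3 and Timp1 passed without any single library. Mmp13 did not pass without either of 0 h replicates 1 and 2 or 12 h replicates 2 and 3 (adjusted p up to 0.255), and Plaur passed only when 12 h replicate 1 was the one left out (otherwise up to 0.216). Against the 0 h library of the same date, the differences in log2(CPM + 1) were 5.40 for Mmp3, 2.63 for Mmp13, 3.43 for Timp1 and 2.36 for Plaur.

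Of 20 genes listed as matrix proteases and their inhibitors, 17 were tested, 4 rose (0.116% of all genes did) and 0 fell, with a median log2 fold change of 0.75. For 8 of the 17, every 12 h library was above all 0 h libraries, against 9.82% of all genes. Adamts4, an aggrecanase, had 2.56, 6.82 and 9.12 CPM at 0 h and 20.1, 23.4 and 49.1 CPM at 12 h (log2 fold change 2.36, adjusted p = 0.0635) and passed DESeq2's test (adjusted p = 0.00163). Mmp10, stromelysin 2, had 0.320, 1.066 and 0 CPM at 0 h and 2.62, 4.71 and 3.95 CPM at 12 h (log2 fold change 2.92, adjusted p = 0.357). Plau, urokinase itself, had 23.6, 36.8 and 25.8 CPM at 0 h and 51.3, 46.6 and 42.4 CPM at 12 h (log2 fold change 0.70, adjusted p = 0.483). Other members overlapped between groups: Mmp2 had 207, 217 and 148 CPM at 0 h and 172, 254 and 217 CPM at 12 h, Mmp14 83.8, 102 and 75.4 CPM at 0 h and 77.7, 96.4 and 73.0 CPM at 12 h, and Timp2 356, 288 and 207 CPM at 0 h and 252, 347 and 193 CPM at 12 h. Mmp9, which neutrophils and osteoclasts carry, overlapped between groups as well, with 7.52, 6.61 and 24.2 CPM at 0 h and 9.79, 28.6 and 29.7 CPM at 12 h.

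The promoters of several of these genes hold a short AP-1 site close to the start of transcription, which is shown here because AP-1 subunits were themselves among the genes that fell. The 250 bases before each RefSeq start site were searched on both strands for the AP-1 motif TGANTCA, the cAMP response element TGACGTCA, the E-box CACGTG, the D-box TTATGTAA and the NF-kB motif, in RefSeq promoters of GRCm38.p6, which were found for 20 of the 23 called genes. The AP-1 motif was present in 5 of these 20 genes (Mmp3, Mmp13, Plaur, Lif and Il6). These 20 genes have 23 promoters, of which 5 held the motif, against 6.75% of all 32851 promoters. For each motif the count was the same by gene and by promoter. The cAMP response element was present in 1 (Dusp1) and in 1.55% of all promoters, the NF-kB motif in 4 (Il6, Lif, Fos and Fosb) and in 7.25%, the E-box in 3 (Ccdc61, Dusp1 and Pdpn) and in 6.02%, and the D-box in 0 and in 0.819%. A match is a run of letters and says nothing about binding. Below are the 150 bases before the start site of 5 genes, 5′ to 3′ on the strand of the gene, with the AP-1 motif in capitals in Mmp3 (chr9:7445672-7445821, plus strand), Mmp13 (chr9:7272364-7272513, plus strand) and Plaur (chr7:24462333-24462482, plus strand), the NF-kB motif in capitals in Il6 (chr5:30012964-30013113, plus strand) and the cAMP response element in capitals in Dusp1 (chr17:26508473-26508622, minus strand).
Mmp3: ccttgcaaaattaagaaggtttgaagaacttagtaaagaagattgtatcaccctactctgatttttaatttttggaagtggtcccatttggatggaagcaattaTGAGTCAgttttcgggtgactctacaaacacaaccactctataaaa
Mmp13: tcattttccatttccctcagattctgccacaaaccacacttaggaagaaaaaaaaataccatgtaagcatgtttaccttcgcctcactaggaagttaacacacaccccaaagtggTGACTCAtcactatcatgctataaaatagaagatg
Plaur: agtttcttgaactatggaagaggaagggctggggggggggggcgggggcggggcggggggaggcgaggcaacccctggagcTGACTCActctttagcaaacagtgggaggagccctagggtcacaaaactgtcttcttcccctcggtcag
Il6: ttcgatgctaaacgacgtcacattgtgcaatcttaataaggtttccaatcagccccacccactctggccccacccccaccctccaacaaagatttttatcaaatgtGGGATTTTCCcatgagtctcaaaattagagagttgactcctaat
Dusp1: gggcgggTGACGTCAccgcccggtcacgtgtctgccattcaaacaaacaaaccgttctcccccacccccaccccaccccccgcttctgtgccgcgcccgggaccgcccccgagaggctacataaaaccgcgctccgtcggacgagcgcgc
The first base of the AP-1 motif lies 46 bases before the start site in Mmp3, 35 in Mmp13 and 69 in Plaur. Mmp3 and Mmp13 rose with log2 fold changes of 5.72 and 3.87, and Plaur with 2.07. The AP-1 motif of Il6 lies 249 bases before its start site and that of Lif 228, outside the window shown.

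Bcl3 and Tnc rose in lists whose other members did not pass the test. Bcl3, an atypical IkB protein that works with NF-kB p50 and p52 in the nucleus (chr7:19808462-19822770, minus strand), had 2.64, 1.49 and 2.40 CPM at 0 h and 17.6, 17.9 and 25.1 CPM at 12 h, a log2 fold change of 3.20 (SE 0.60, adjusted p = 0.01). Of its 2475 exonic bases, 161 are shared with a gene on the other strand. Its call held without 12 h replicate 1 or 2, and its adjusted p reached 0.159 in the other leave-outs. Among 13 NF-kB feedback genes, all tested, Bcl3 was the only 1 that rose and 0 fell, against 0.116% and 0.0508% of all genes. Their median log2 fold change was 0.53. For 3 of the 13 every 12 h library was above, and for 1 below, all 0 h libraries, against 9.82% and 9.86% of all genes. Nfkbia, the classical NF-kB inhibitor, was lower at 12 h in every library, with 104, 99.2 and 81.3 CPM at 0 h and 49.6, 55.1 and 58.2 CPM at 12 h, and was not called (log2 fold change −0.81, adjusted p = 0.478). Nfkbiz had 48.2, 40.5 and 74.2 CPM at 0 h and 74.3, 74.3 and 86.6 CPM at 12 h (log2 fold change 0.53, adjusted p = 0.676). Nfkb1 overlapped between groups.

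Tnc, tenascin C, a matrix protein of healing wounds and of regenerating tissue (chr4:63959785-64047015, minus strand), had 62.2, 57.9 and 73.3 CPM at 0 h and 145, 250.3 and 207 CPM at 12 h, a log2 fold change of 1.64 (SE 0.34, adjusted p = 0.0317). The gene shares 176 of 7772 exonic bases with one on the other strand. Its call held without 12 h replicate 1 and was lost without any of the other 5 libraries, with adjusted p of up to 0.255. Of 19 provisional matrix and matricellular genes, all tested, 1 rose and 0 fell, against 0.116% and 0.0508% of all genes. The median log2 fold change was 0.67, and 10 had every 12 h library above all 0 h libraries, against 9.82% of all genes. Spp1, osteopontin, had 65.9, 101 and 87.4 CPM at 0 h and 138, 273 and 229 CPM at 12 h (log2 fold change 1.33, adjusted p = 0.256). Has3, a hyaluronan synthase, had 10.0, 7.67 and 16.0 CPM at 0 h and 28.9, 29.5 and 31.9 CPM at 12 h (log2 fold change 1.43, adjusted p = 0.151). Vcan, the hyaluronan-binding versican, had 37.3, 37.0 and 61.9 CPM at 0 h and 117, 128 and 86.4 CPM at 12 h (log2 fold change 1.28, adjusted p = 0.185). Fn1, fibronectin, overlapped between groups, with 284, 457 and 292 CPM at 0 h and 396, 478 and 357 CPM at 12 h. In the fit of the 6 libraries, 5 genes of this list passed: Tnc, Spp1, Has3, Ptx3 and Vcan. That fit called 0.873% of the genes it tested and has no term for the date. With campaign as a covariate the median of the list was 0.25 and Tnc was not called (adjusted p = 0.078). The 15 collagen and fibroblast genes had a median log2 fold change of 0.09.

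Of the remaining 10 genes, Ccng1 alone belongs to one of the gene lists. Ccng1, cyclin G1, a target of p53 (chr11:40748552-40755311, minus strand), had 53.4, 64.8 and 77.6 CPM at 0 h and 175, 160.2 and 165 CPM at 12 h, a log2 fold change of 1.36 (SE 0.24, adjusted p = 0.00696). It was lost without 0 h replicate 1 or 2 (adjusted p up to 0.116). Of the 14 tested p53 targets and CDK inhibitors it was the only 1 called, against 0.167% of all genes. Cdkn1a, the best known p53 target, overlapped between groups with 181, 153 and 188 CPM at 0 h and 198, 190.5 and 169 CPM at 12 h. For 6 of the 14 every 12 h library was above, and for 1 below, all 0 h libraries, against 9.82% and 9.86% of all genes. Fitted values were above 0 for 12 of the 14, and the summed level of the list was 701 to 733 TPM at 0 h and 939 to 1040 TPM at 12 h. Bax had 12.9, 17.6 and 8.16 CPM at 0 h and 25.6, 27.0 and 25.2 CPM at 12 h (log2 fold change 1.003, adjusted p = 0.418), Phlda3 had 19.1, 12.7 and 19.8 CPM at 0 h and 45.1, 34.6 and 27.8 CPM at 12 h (log2 fold change 1.06, adjusted p = 0.286), and the median log2 fold change of the 14 was 0.19.

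Another 3 of the genes that rose encode enzymes. Gda, guanine deaminase, had 35.4, 39.97 and 37.0 CPM at 0 h and 83.9, 77.9 and 94.97 CPM at 12 h (log2 fold change 1.19, adjusted p = 0.01). Urah, which hydrolyses the product of urate oxidation, had 41.0, 42.6 and 48.2 CPM at 0 h and 89.2, 104 and 138 CPM at 12 h (log2 fold change 1.33, adjusted p = 0.01). Samhd1, which cleaves deoxynucleotide triphosphates, had 36.6, 31.2 and 49.0 CPM at 0 h and 73.9, 92.6 and 67.5 CPM at 12 h (log2 fold change 1.005, adjusted p = 0.0442). These 3 genes were moderately expressed and tight within groups, but Samhd1 passed in 1 of 6 leave-outs, Gda in 2 and Urah in 3, and their adjusted p reached 0.462, 0.116 and 0.126. Gda was lost without 12 h replicate 3 or without any 0 h library, Urah without 12 h replicate 3 or 0 h replicate 1 or 2, and Samhd1 in every case but that of 0 h replicate 3. Of Urah's 1427 exonic bases, 177 are shared with a gene on the other strand.

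Among cell surface and secreted products, St6galnac5, a sialyltransferase, had 3.28, 3.41 and 1.44 CPM at 0 h and 12.0, 15.6 and 17.9 CPM at 12 h (log2 fold change 2.45, adjusted p = 0.0178). The gene shares 108 of 6002 exonic bases with Pigk on the other strand. Pdpn, podoplanin, a surface glycoprotein of lymphatic endothelium and of activated fibroblasts and keratinocytes, had 3.76, 5.33 and 4.64 CPM at 0 h and 10.6, 18.5 and 16.0 CPM at 12 h (log2 fold change 1.71, adjusted p = 0.0294). Angptl4, a secreted inhibitor of lipoprotein lipase, had 0.800, 0.426 and 1.1199 CPM at 0 h and 4.41, 6.71 and 18.0 CPM at 12 h (log2 fold change 3.64, adjusted p = 0.0497). Each of these 3 passed only when 12 h replicate 1 was left out, and their adjusted p reached 0.116, 0.367 and 0.445 without another library.

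Besides the immediate early genes, 3 genes fell (Ccdc61, Rerg and Fancb). Ccdc61, which encodes a coiled-coil protein of centrioles and basal bodies, had 20.1, 29.3 and 16.3 CPM at 0 h and 8.82, 8.34 and 6.53 CPM at 12 h (log2 fold change −1.47, adjusted p = 0.00984). All 3 of its 12 h values lie below those of every other library of the series, and it is the only called gene for which this holds. Rerg, a small RAS-like GTPase that restrains growth, had 29.0, 35.0 and 25.4 CPM at 0 h and 11.2, 7.79 and 6.53 CPM at 12 h (log2 fold change −1.80, adjusted p = 0.049). Fancb, a subunit of the Fanconi anaemia core complex, had 14.0, 11.3 and 12.0 CPM at 0 h and 3.86, 4.71 and 3.26 CPM at 12 h (log2 fold change −1.65, adjusted p = 0.0397). Rerg and Fancb were the weakest of the 23 in this sense: removal of any 1 of the 6 libraries ended the call, with adjusted p of up to 0.31 and 0.27. Ccdc61 was lost without 0 h replicate 2, 12 h replicate 2 or 12 h replicate 3 (adjusted p up to 0.174).

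**Figure D3:**
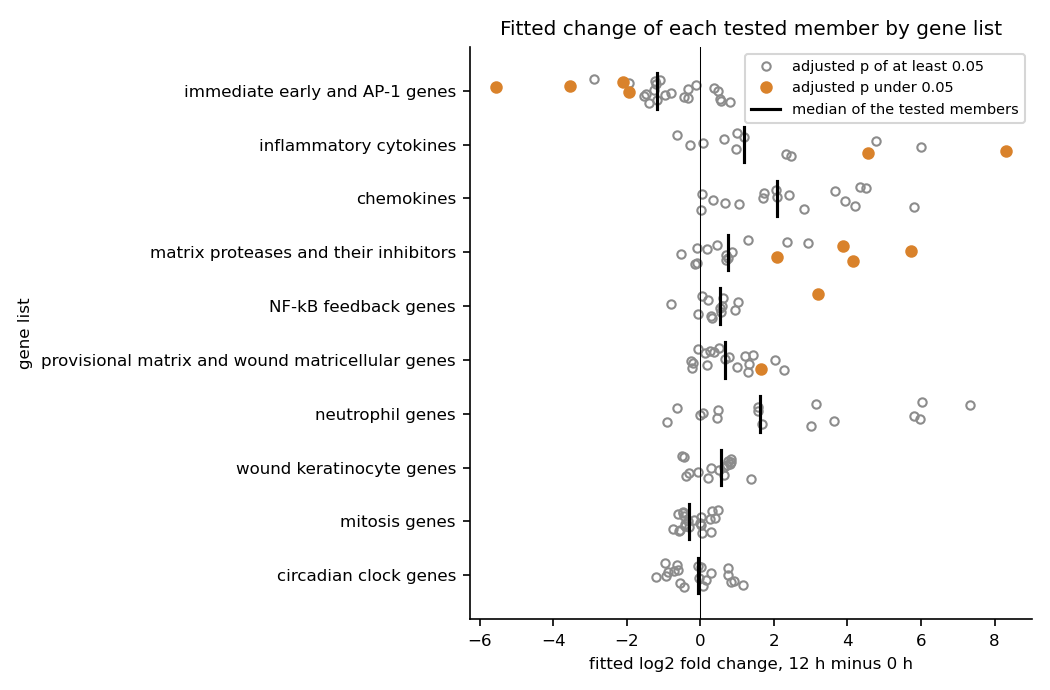
Fitted log2 fold change of 12 h over 0 h for each tested member of 10 gene lists. Filled circles passed the test, open circles did not, and black bars are the list medians, which run from −1.17 for immediate early genes to 2.09 for chemokines.

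No gene of the keratinocyte lists passed the test in the main fit. Of 16 wound keratinocyte genes, all tested, 0 were called and the median log2 fold change was 0.57, with fitted values from −0.50 to 1.39. For 4 of the 16 every 12 h library was above, and for 1 below, all 0 h libraries, against 9.82% and 9.86% of all genes. In the fit of the 6 libraries 1 of the 16 passed, where 0.873% of the genes tested passed. Krt6a, a keratin that activated keratinocytes switch on, had 1396, 1364 and 1880.0 CPM at 0 h and 1888, 3691 and 2556 CPM at 12 h (log2 fold change 0.81, adjusted p = 0.569), with reads that may be shared with its near-identical neighbour Krt6b. Its partner Krt16 had 1064, 838 and 1839.5 CPM at 0 h and 1732, 3102 and 1512 CPM at 12 h, and Krt17 had 264, 185 and 278 CPM at 0 h and 253, 569.7 and 476 CPM at 12 h, both with overlap. Of 14 resting epidermis genes tested 0 were called and the median was −0.06. The suprabasal keratin Krt1 was nonetheless lower in every 12 h library, with 28676, 27326 and 28245 CPM at 0 h and 19500.0, 13102 and 13920.0 CPM at 12 h (log2 fold change −0.86, adjusted p = 0.65), while basal Krt14 had 5171, 5562 and 6064 CPM at 0 h and 6065, 5518 and 5494 CPM at 12 h. Of 15 nail and hair keratin genes tested 0 were called, with a median of 0.40. Krt84 and Krt36 stood apart among them, with 449.5, 310.0 and 602 CPM at 0 h and 1168, 1214 and 1046 CPM at 12 h for Krt84 (log2 fold change 1.33, adjusted p = 0.456) and 451, 345 and 633 CPM at 0 h and 1104, 1074 and 1086 CPM at 12 h for Krt36 (log2 fold change 1.19, adjusted p = 0.388), and both passed in the fit of the 6 libraries (adjusted p = 0.0205 and 0.0261).

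Clock genes were examined because the hour of day of collection is not given. Of 20 circadian clock genes, all tested, 0 were called, 4 had every 12 h library above and 7 every 12 h library below all 0 h libraries, against 9.82% and 9.86% of all genes, and the median log2 fold change was −0.05. Nr1d1 (REV-ERB alpha), a repressor that acts on the clock gene Arntl, had 143, 98.5 and 124 CPM at 0 h and 57.3, 37.0 and 65.1 CPM at 12 h (log2 fold change −1.196, adjusted p = 0.0977) and passed DESeq2's test (adjusted p = 0.0143). Arntl, which encodes BMAL1, had 45.0, 40.4 and 53.3 CPM at 0 h and 18.2, 20.1 and 32.5 CPM at 12 h (log2 fold change −0.97, adjusted p = 0.281). Per2, Per3 and Cry1 pointed the other way: Per3 had 28.8, 30.0 and 24.5 CPM at 0 h and 49.9, 43.9 and 53.8 CPM at 12 h (log2 fold change 0.82, adjusted p = 0.55), Per2 19.5, 16.4 and 18.1 CPM at 0 h and 38.5, 38.2 and 24.6 CPM at 12 h (log2 fold change 0.91, adjusted p = 0.669). Cry1 19.5, 20.5 and 13.9 CPM at 0 h and 30.3, 33.7 and 27.0 CPM at 12 h (log2 fold change 0.75, adjusted p = 0.598). Against the 0 h library of the same date, the differences in log2(CPM + 1) were −1.24 for Nr1d1, −1.19 for Arntl, 0.97 for Per3 and 1.06 for Cry1.

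Proliferation genes were not called in either direction. Of 21 mitosis genes 0 were called, the median log2 fold change was −0.31, and 2 had every 12 h library above and 7 every 12 h library below all 0 h libraries, against 9.82% and 9.86% of all genes. Among the 7 were Mki67 with 267, 321 and 286 CPM at 0 h and 219, 220.0 and 218 CPM at 12 h (log2 fold change −0.41, adjusted p = 0.751) and Top2a with 225, 216 and 220.1 CPM at 0 h and 178, 138 and 128 CPM at 12 h (log2 fold change −0.58, adjusted p = 0.669). Of 18 DNA replication genes 0 were called, and 17 of the 18 fitted values were below 0, with a median of −0.29. Of the 24 hypoxia and glycolysis genes 0 were called, with a median of 0.18. The 13 oxidative stress genes, with a median of 0.35, all had fitted values above 0, and the 15 heat shock genes had a median of −0.04. Hsph1, a co-chaperone, had the largest fold change among the latter, with 52.9, 64.7 and 66.4 CPM at 0 h and 139, 89.7 and 114 CPM at 12 h (log2 fold change 0.90, adjusted p = 0.286).

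Skeletal and vascular lists held no call at 12 h. The medians were −0.37 for 12 osteoblast and osteocyte genes (−0.24 with Ifitm5, which had no read at 12 h, at its bound), 0.02 for 11 osteoclast genes and 0.48 for 16 endothelial genes. The bone matrix gene Ibsp had 128, 237 and 56.0 CPM at 0 h and 104, 115 and 105 CPM at 12 h, and the bone-resorbing protease Ctsk had 29.8, 41.1 and 40.8 CPM at 0 h and 33.2, 41.0 and 39.0 CPM at 12 h. Tnfsf11, the osteoclast differentiation factor RANKL, had the largest increase in fitted value of the osteoclast list, with 0.240, 0.959 and 0.800 CPM at 0 h and 3.03, 6.53 and 4.47 CPM at 12 h (log2 fold change 2.84, adjusted p = 0.151), and passed DESeq2's test (adjusted p = 0.0114). Of the 16 endothelial genes, 6 had every 12 h library above and 0 every 12 h library below all 0 h libraries, against 9.82% and 9.86% of all genes. In the fit of the 6 libraries 1 of the 16 passed, where 0.873% of the genes tested passed. Selp, the P-selectin on which leukocytes roll, had 3.76, 3.62 and 5.28 CPM at 0 h and 12.3, 15.2 and 26.6 CPM at 12 h (log2 fold change 2.105, adjusted p = 0.294). The general endothelial marker Pecam1 had 49.7, 51.2 and 58.9 CPM at 0 h and 39.8, 73.8 and 60.3 CPM at 12 h. Of the 17 BMP, Wnt and digit patterning genes 0 were called, and the median was −0.27. Msx1, a homeobox gene of the regenerating tip, had 12.5, 11.2 and 15.7 CPM at 0 h and 13.2, 26.6 and 14.9 CPM at 12 h.

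Because 2 of the 3 libraries at 0 h carry another date than the 12 h libraries, each called gene was also set against the 0 h library of the same date. The direction of these differences is fixed, since all 23 genes have groups without overlap and this library is one of the 3, and they are given for their size alone. The difference was more than 1 on the log2(CPM + 1) scale for 21 genes, and for the other 2 it was 0.65 (Samhd1) and −0.97 (Ccdc61). In a fit that kept only this library at 0 h, with its spread taken from the other groups, 3 genes had an adjusted p under 0.05 (Fosb, Fos and Dusp1, with 1.68e-05, 0.00339 and 0.0387), all lower, and none of the 16 higher genes did. With the campaign of the title date as a covariate, 21 genes were called, of which 18 were among the 23. All 12 h libraries lie in 1 campaign, so the size of its effect comes from the times that hold libraries of both. Pdpn, Tnc, Samhd1, Rerg and Angptl4 were lost, with adjusted p of 0.0985, 0.078, 0.0985, 0.13 and 0.107. The covariate also moved list medians: to 2.08 for inflammatory cytokines, 1.76 for chemokines, 1.24 for neutrophil genes, 0.17 for monocyte and macrophage genes, 0.53 for p53 targets, −0.09 for mitosis genes, 0.18 for endothelial genes and −0.02 for BMP, Wnt and digit patterning genes. It turned the sign for heat shock genes (0.29), collagen and fibroblast genes (−0.05) and osteoclast genes (−0.12), and left matrix proteases and their inhibitors at 0.72.

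**Figure D4:**
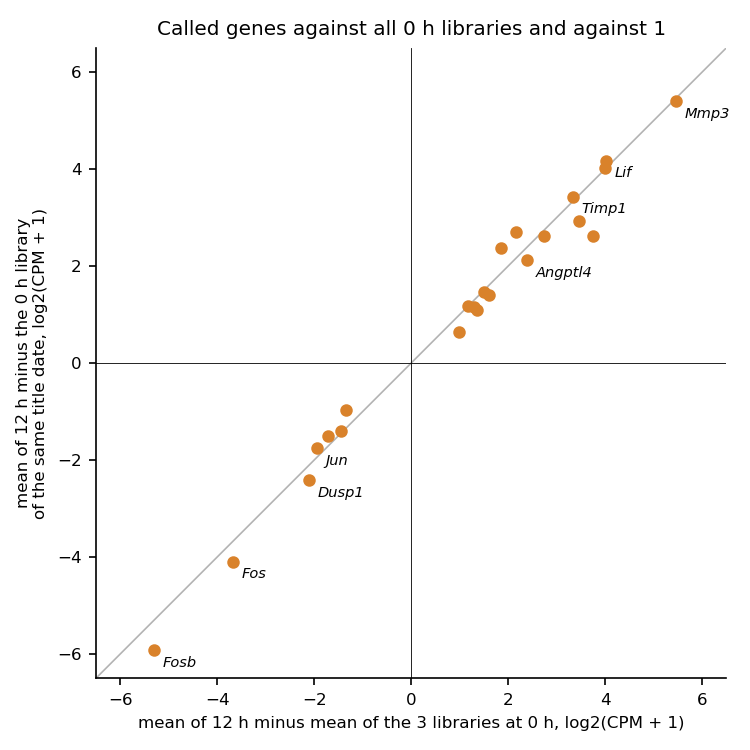
Difference of the 12 h mean from the mean of all 3 libraries at 0 h (horizontal) and from the single 0 h library with the date of the 12 h libraries (vertical), both in log2(CPM + 1), for the 23 called genes. The vertical library is part of the horizontal mean, so the sign of each point is fixed. Vertical values run from −5.93 for Fosb to 5.40 for Mmp3, and Mmp13 lies below the line with 2.63.

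The neighbouring times were compared with 12 h directly. No library at 6 h or 24 h carries the date of the 12 h titles. The titles of 6 h replicate 2 and 24 h replicate 3 carry dates of the later campaign. Date and time after amputation are therefore confounded in these comparisons too. Against 6 h, 0 genes had an adjusted p under 0.05 by edgeR (lowest adjusted p 0.316, with 914 genes at an unadjusted p under 0.05), and DESeq2 called 3 (Abhd2, St6galnac5 and Camp). Against 24 h, edgeR called 0 genes (lowest adjusted p 0.18, with 1068 at an unadjusted p under 0.05) and DESeq2 called 21, Ccng1 among them. St6galnac5 had 2.15 to 4.05 CPM at 6 h, 12.0 to 17.9 CPM at 12 h and 8.62 to 9.58 CPM at 24 h, and its log2 fold change of 12 h over 6 h was 2.38 (adjusted p = 0.316). For 5 genes (Lif, Timp1, Mmp3, Il6 and Pdpn) every 24 h library was above every 12 h library. Mmp3, for example, had 119.7 to 237 CPM at 6 h, 258 to 692 CPM at 12 h and 759.5 to 870.3 CPM at 24 h, with a log2 fold change of 12 h over 24 h of −0.79 (adjusted p = 0.846). Ccng1 had 160.2 to 175 CPM at 12 h and 67.3 to 102 CPM at 24 h, a log2 fold change of 1 (adjusted p = 0.258).

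The test was also repeated with 1 library left out at a time. Each such fit leaves 2 libraries in a group, so a lost call need not rest on a single mouse. Without 0 h replicates 1, 2 and 3 in turn, 8, 7 and 15 genes were called, and without 12 h replicates 1, 2 and 3 the numbers were 23, 12 and 9. Of the 23 genes, 6 (Fosb, Lif, Timp1, Fos, Mmp3 and Jun) were called in each of these 6 fits. Over these fits the log2 fold change ran from 5.32 to 6.02 for Mmp3, from 4.39 to 4.85 for Lif and from −5.72 to −5.16 for Fosb.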

How the data were processed

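RNA-seq was analysed from 30 digits, of which the 3 at 12 h and the 3 at 0 h form the comparison. Per the study's methods, 100 ng of total RNA per digit was polyA-selected, amplified over 18 cycles and sequenced as single reads of 65 bases. The authors mapped reads to Ensembl mouse genes with Bowtie and deposited per-library expected counts and TPM values estimated by RSEM 1.2.3. The TPM values the authors deposited are relative to all transcripts of a library and serve here only for summed levels of gene lists. The authors' averages of normalized TPM per time were not used. Expected counts (78.1% whole) were rounded and tested with edgeR 4.0.16 in R 4.3.3: filterByExpr by time point, TMM, and a quasi-likelihood fit of all 30 libraries, with the contrast of 12 h minus 0 h and Benjamini-Hochberg adjustment over 13793 genes at 0.05. SE is the absolute log2 fold change over the square root of F. CPM is the count over the effective library size. Intervals of ratios of reads are exact at 95% and, like the floor of 3 counts, cover counting error only. The procedure was tested on simulated data.

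The groups, the gene lists and the tests were chosen with earlier results of these data known. Named are all called genes, the 10 genes per direction with the most extreme fold change among uncalled genes without overlap (unadjusted p under 0.05, at least 5 CPM in the higher group, over 1 in log2 from the 0 h library of the same date), list members called in either edgeR fit, the first 4 tested members of each list, and the extremes of each list. Further list members, and genes named from DESeq2 or from counts of patterns, were chosen after their values were seen. Alternatives were DESeq2 1.42.0 (test and size factors), other filters, the 6 libraries alone, campaign as a covariate, only the 0 h library of the same date, a robust fit and leaving out each library. Gene positions are from GENCODE M21 and promoter sequences from RefSeq, both GRCm38. Figures were drawn with matplotlib 3.10.9.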

Additional observations from a re-analysis of the deposited data

How the results depend on the processing

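The number of called genes depended on the fit. DESeq2's test called 66 genes (49 higher, 17 lower) and the fit of only the 6 libraries called 111 (74 higher, 37 lower), and both included all 23. At an adjusted p under 0.01, 10 genes remained, 5 of them higher. With only the 0 h library of the same title date, 3 genes were called, 0 higher and 3 lower, from 1 library at 0 h; its construction leaves fewer samples. Leaving out 1 library of the 6 in turn gave 7 to 23 called genes, 3 to 18 higher and 3 to 5 lower. The campaign covariate (21 genes), DESeq2 size factors (22), no filter on low counts (26), a minimum mean of 10 counts (22) and a robust fit (22) kept the count within 1.5 times. Of the 23 genes, Angptl4 was lost with DESeq2 size factors and with the minimum of 10 counts, Fancb without the filter and Mmp13 in the robust fit. Against 6 h and 24 h, DESeq2 called 3 and 21 genes where edgeR called 0, and every other alternative for these comparisons also gave 0; the cause was not tested. No fold change of a called gene reversed under any of these alternatives. No paired analysis was possible because the labels number no replicates, and the 1 animal code that a 0 h and a 12 h title share links fewer than 2 pairs. With 3 mice a group and 4916791 to 12773273 counts a library, changes in genes with few reads, such as Tnf, were not detectable at this depth.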

Other observations

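Among uncalled genes without overlap between groups, several beyond the lists had large fitted values. Snai1, a transcriptional repressor of epithelial adhesion genes, had 1.60, 2.45 and 1.60 CPM at 0 h and 5.93, 13.4 and 15.8 CPM at 12 h (log2 fold change 2.62, adjusted p = 0.0982). Serpina3n, a secreted protease inhibitor of the acute phase response, had 9.68, 11.8 and 13.4 CPM at 0 h and 46.9, 79.0 and 87.4 CPM at 12 h (log2 fold change 2.61, adjusted p = 0.101). Both passed DESeq2's test, with adjusted p of 0.00538 and 0.0242. On the other side, Cdk5r1, an activator of the kinase CDK5, had 13.4, 13.5 and 25.4 CPM at 0 h and 3.03, 5.44 and 3.43 CPM at 12 h (log2 fold change −2.13, adjusted p = 0.23). Hhip, an inhibitor of hedgehog ligands, had 8.48, 5.86 and 17.1 CPM at 0 h and 5.65, 0.363 and 0.343 CPM at 12 h (log2 fold change −2.24, adjusted p = 0.592), with 12 h replicate 1 close to the 0 h range.

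Of the 10 lower genes picked by the rule for uncalled genes without overlap, 4 were high in the 0 h libraries of the later title date and low in the one that shares its date with 12 h. Bcmo1, a carotenoid-cleaving oxygenase, had 14.7, 29.6 and 3.20 CPM at 0 h, of which the last is the library with the date of the 12 h libraries, and 0.689, 0.363 and 1.72 CPM at 12 h. The log2 fold change was −4.09 (adjusted p = 0.535), and −0.72 with campaign as a covariate (adjusted p = 0.995). Gcm1, a transcription factor best known from placenta, had 17.8, 26.5 and 4.48 CPM at 0 h and 0.276, 1.99 and 3.26 CPM at 12 h, and its fold change went from −3.18 to −0.58. The same shift was found for Frrs1l, from −4.26 to −1.31, and for D3Bwg0562e, from −2.76 to −0.74. For comparison, Fosb went from −5.56 to −5.68 and Mmp3 from 5.72 to 5.30 with the covariate.

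The remaining gene lists held no call. Of 13 tested antimicrobial and acute phase genes, 7 had every 12 h library above all 0 h libraries (9.82% of all genes did), with a median log2 fold change of 1.52 (0.86 with campaign as a covariate). Hp, the haemoglobin scavenger haptoglobin, had 1.2, 2.66 and 3.20 CPM at 0 h and 7.86, 6.16 and 9.27 CPM at 12 h (log2 fold change 1.74, adjusted p = 0.569). Medians were 0.32 for 9 EGF receptor ligands, 0.11 for 14 interferon-stimulated genes, 0.52 for 9 glucocorticoid response genes, 0.41 for 9 adipocyte genes, −0.10 for 11 Schwann cell genes, −0.21 for 10 smooth muscle and pericyte genes, −0.49 for 8 sweat gland genes, 0.23 for 7 antigen presentation and lymphocyte genes and 0.25 for 5 mast cell genes. The 11 cartilage, tendon and joint genes had a median of 0.02 once Matn3, which had no read in the 6 libraries, was set aside. For all 11 the median was −0.22 with campaign as a covariate. With campaign as a covariate the medians were 0.52 for EGF receptor ligands, 0.12 for glucocorticoid response genes, 0.76 for adipocyte genes, −0.30 for Schwann cell genes, −0.08 for sweat gland genes, 0.02 for antigen presentation and lymphocyte genes and −1.59 for skeletal muscle genes. For the 6 erythroid genes tested the median was −1.78 and for the 5 skeletal muscle genes −3.65 (−3.40 with Myh1 and Ttn, which had no read at 12 h, at their bound). In both lists the 0 h group was led by 0 h replicate 2. S100b, a calcium-binding protein of Schwann cells, had 26.2, 28.2 and 20.3 CPM at 0 h and 9.92, 11.2 and 7.90 CPM at 12 h (log2 fold change −1.36, adjusted p = 0.652), and passed in the fit of the 6 libraries (adjusted p = 0.0268).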
